A study of Rattus norvegicus with 24 samples.

Results

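The Rab genes encode small GTPases that direct vesicles and organelles inside the cell. Members were taken by name: every probe set whose only platform symbol is Rab, a number and at most 1 letter, with interactors such as Rab3gap and Rab11fip left out. This gave 97 probe sets for 56 Rab genes, out of 14217 genes named on the array. Each gene is represented by its brightest probe set, the one with the highest mean log2(signal + 1) over the 24 arrays. Of the 56 genes, 48 passed the filter on low signal that left 9009 genes for testing. Genes entered by name only, but the rule was chosen with earlier results of these data known. Signal level picked the probe set of each gene.

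The arrays come from a study of rat models used in research on attention deficit and hyperactivity. Affymetrix Rat RAE 230 2.0 arrays measured RNA from 28 male rats killed at postnatal day 55 to 65. The 4 strain groups were 8 Sprague-Dawley rats (SD), 4 SD rats exposed to polychlorinated biphenyls (SD-PCB), 8 Wistar-Kyoto rats (WKY) and 8 spontaneously hypertensive rats (SHR). From each group, 1 array covers each of 6 dissected brain regions: prefrontal cortex, hippocampus, the dorsal and the ventral striatum, the cerebellar vermis, and a midbrain piece of substantia nigra and ventral tegmental area (SN/VTA). SHR against its control strain WKY is the genetic model, and SD-PCB against SD the environmental one. There is no second array of a strain group in any region, and the 6 arrays of a group come from the same set of 4 or 8 rats. The p-values for strain groups below therefore measure how well the 6 regions agree, and are too small as statements about strains. Whether each array holds RNA of 1 rat or of a pool is not given in the sources used here, and neither are the dose and route of the biphenyls.

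A Rab protein cycles between a GTP-bound form on a membrane and a GDP-bound form in the cytosol. Exchange factors load GTP, GTPase-activating proteins end the signal, and GDP dissociation inhibitors carry the inactive protein between membranes. Each active Rab recruits its own effectors (motors, tethers, lipid kinases), so that different Rabs mark different organelles. In neurons Rab3 and Rab27 proteins act on transmitter and peptide release, Rab5 on endocytosis, Rab4 and Rab11 on receptor recycling, and Rab7 on transport to lysosomes. By textbook role the members fall into 8 genes of synaptic vesicles and regulated secretion, 14 of the endoplasmic reticulum (ER) and Golgi, 7 of early endosomes, 16 of recycling endosomes and the plasma membrane, 9 of late endosomes, lysosomes and autophagy, and 2 of the cilium.

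Region labels held up against single marker genes, but some arrays had a raised marker list of another region or a low list of their own. Drd1, a dopamine receptor of striatal output neurons, read 3441 to 6531 in both striata and at most 708 elsewhere. Slc6a3, the dopamine transporter, read 955 to 8411 in SN/VTA and at most 122 elsewhere. Pcp2, a Purkinje cell gene, read 9371 to 13406 in the vermis and at most 668 elsewhere. Gabra6, a gene of cerebellar granule cells, was at least 17285 in the vermis, but 1 prefrontal array also read 2297. On the WKY prefrontal array the cerebellar marker list had a mean log2 level of 10.09, against 7.31 to 7.72 on the other prefrontal arrays. The striatal list read 9.06 (SD-PCB) and 8.61 (SHR) in hippocampus, against 7.69 (SD) and 7.72 (WKY). In SN/VTA the midbrain dopamine list read 9.64 in SD-PCB, against 11.36 (SD), 10.81 (WKY) and 11.42 (SHR). All these arrays were kept in the main fit. Whether they hold tissue of another region, or less of their own, was not tested. The array median differed between strain groups: it averaged 163 signal units in SD, 98.3 in SD-PCB, 121 in WKY and 153 in SHR (6 arrays each). Centring every array on its median would therefore shift all log2 differences of SD-PCB minus SD by 0.72, of WKY minus SD by 0.43 and of SHR minus WKY by -0.34. As a sign of RNA integrity, the 3′ signal of Gapdh over its 5′ signal, as log2, was 1.96 to 2.18 in SD, 0.82 to 1.44 in SD-PCB, 1.71 to 2.16 in WKY and 1.28 to 2.03 in SHR. In dissected tissue, a change in the number of cells and a change in RNA per cell cannot be told apart.

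Promoters were available for 45 of the 56 members, as windows of 300 bases (250 before to 50 after the start) from RefSeq, build GRCr8. The members' windows held a median of 21 CpG dinucleotides, against 7 over all 27457 windows, and ranged from 4 in Rab14 to 41. Windows were compared by 5 motifs, searched on both strands and with 1 window a gene. The 27457 windows include genes outside the 14217 named on the array, so they differ from the background of the signal comparisons. Member windows were not compared with those of the tested genes alone. The GC box GGGCGG occurred in 36 of 45 member windows (80%), against 34.9% of all windows. CCAAT occurred in 37.8%, against 37.7%. TATAAA occurred in 0%, against 14.3%. TGACGTCA occurred in 2.2%, against 1.9%, and CACGTG in 8.9%, against 6.7%. The 4 windows below are shown because these genes carry the regional patterns that follow. By region mean, Rab40b, Rab15 and Rab3d were highest in dorsal striatum and lowest in vermis, whereas Rab9b was highest in SN/VTA. Prefrontal cortex was also high for Rab15, and hippocampus for Rab40b and Rab3d. Capitals mark GGGCGG or CCAAT on either strand, so they also appear as CCGCCC or ATTGG. All 4 are read 5′ to 3′ on the minus strand: Rab40b at chr10:107157326-107157625, Rab15 at chr6:101257034-101257333, Rab3d at chr8:28725218-28725517 and Rab9b at chrX:105023823-105024122.
Rab40b: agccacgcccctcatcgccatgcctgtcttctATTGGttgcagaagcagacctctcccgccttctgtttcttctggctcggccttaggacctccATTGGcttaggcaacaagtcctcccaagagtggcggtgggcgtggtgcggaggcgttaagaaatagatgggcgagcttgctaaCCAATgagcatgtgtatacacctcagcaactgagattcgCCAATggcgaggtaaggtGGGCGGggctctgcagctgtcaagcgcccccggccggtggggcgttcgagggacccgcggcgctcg
Rab15: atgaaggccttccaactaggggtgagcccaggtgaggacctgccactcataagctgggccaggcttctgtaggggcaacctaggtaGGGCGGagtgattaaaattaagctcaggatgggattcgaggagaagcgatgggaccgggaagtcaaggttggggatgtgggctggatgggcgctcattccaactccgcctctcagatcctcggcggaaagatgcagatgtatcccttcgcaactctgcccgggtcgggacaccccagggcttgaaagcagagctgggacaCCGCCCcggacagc
Rab3d: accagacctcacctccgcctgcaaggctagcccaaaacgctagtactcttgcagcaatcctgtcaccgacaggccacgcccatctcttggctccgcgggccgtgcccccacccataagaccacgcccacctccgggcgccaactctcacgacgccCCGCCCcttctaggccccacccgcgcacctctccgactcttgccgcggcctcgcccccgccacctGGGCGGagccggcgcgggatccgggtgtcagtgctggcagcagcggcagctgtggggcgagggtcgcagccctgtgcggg
Rab9b: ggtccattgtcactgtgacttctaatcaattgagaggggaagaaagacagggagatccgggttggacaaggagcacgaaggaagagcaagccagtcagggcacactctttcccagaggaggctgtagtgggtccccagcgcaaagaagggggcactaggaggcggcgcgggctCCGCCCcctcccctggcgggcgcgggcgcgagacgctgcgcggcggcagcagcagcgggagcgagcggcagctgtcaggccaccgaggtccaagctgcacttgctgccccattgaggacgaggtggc
The Rab40b window has 4 CCAAT matches and 1 GC box. Rab15 and Rab3d have 2 GC boxes each and no CCAAT. Rab9b has 1 GC box. Rab40b, Rab15 and Rab3d thus share no searched motif beyond the GC box, which Rab9b has too. A match is a description of the letters, not a shown binding site.

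Across regions, the Rab family varied about as much as other genes. The region means of a member spanned a median of 0.67 log2 units (48 genes, 4 arrays a region), against 0.77 over all 9009 genes. Rab3a, the main synaptic vesicle Rab, had the smallest span by its brightest probe set, 0.18, though its second probe set was called in dorsal striatum (-0.43, adjusted p = 0.0211) and prefrontal cortex (0.54, adjusted p = 0.00424). At the other end, Rab37 spanned 3.89, Rab40b 3.64 and Rab15 3.40. Signals under the filter's level of 116.2 units occurred in 12 tested members, and most often in Rab37 and Rab30 (11 of 24 arrays each), Rab4b (5), Rab40b and Rab3c (4 each) and Rab26 (3). The size of a difference that rests on such arrays is not exact. For Rab37, a Rab of secretory granules, they lie in both striata, prefrontal cortex and hippocampus. Of the 48 members, 35 were called in at least 1 of the 6 region comparisons, 29 in at least 1 of the 4 strain comparisons, and 8 in none of these. These are 72.9%, 60.4% and 16.7% of the members, against 67.6%, 64.4% and 12.8% of all genes tested. Called means an adjusted p under 0.05 in limma, with Benjamini-Hochberg adjustment over 15521 probe sets. Each region was set against the mean of the other 5 in the same strain group, so the 6 region comparisons share all arrays.

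**Figure D1:**
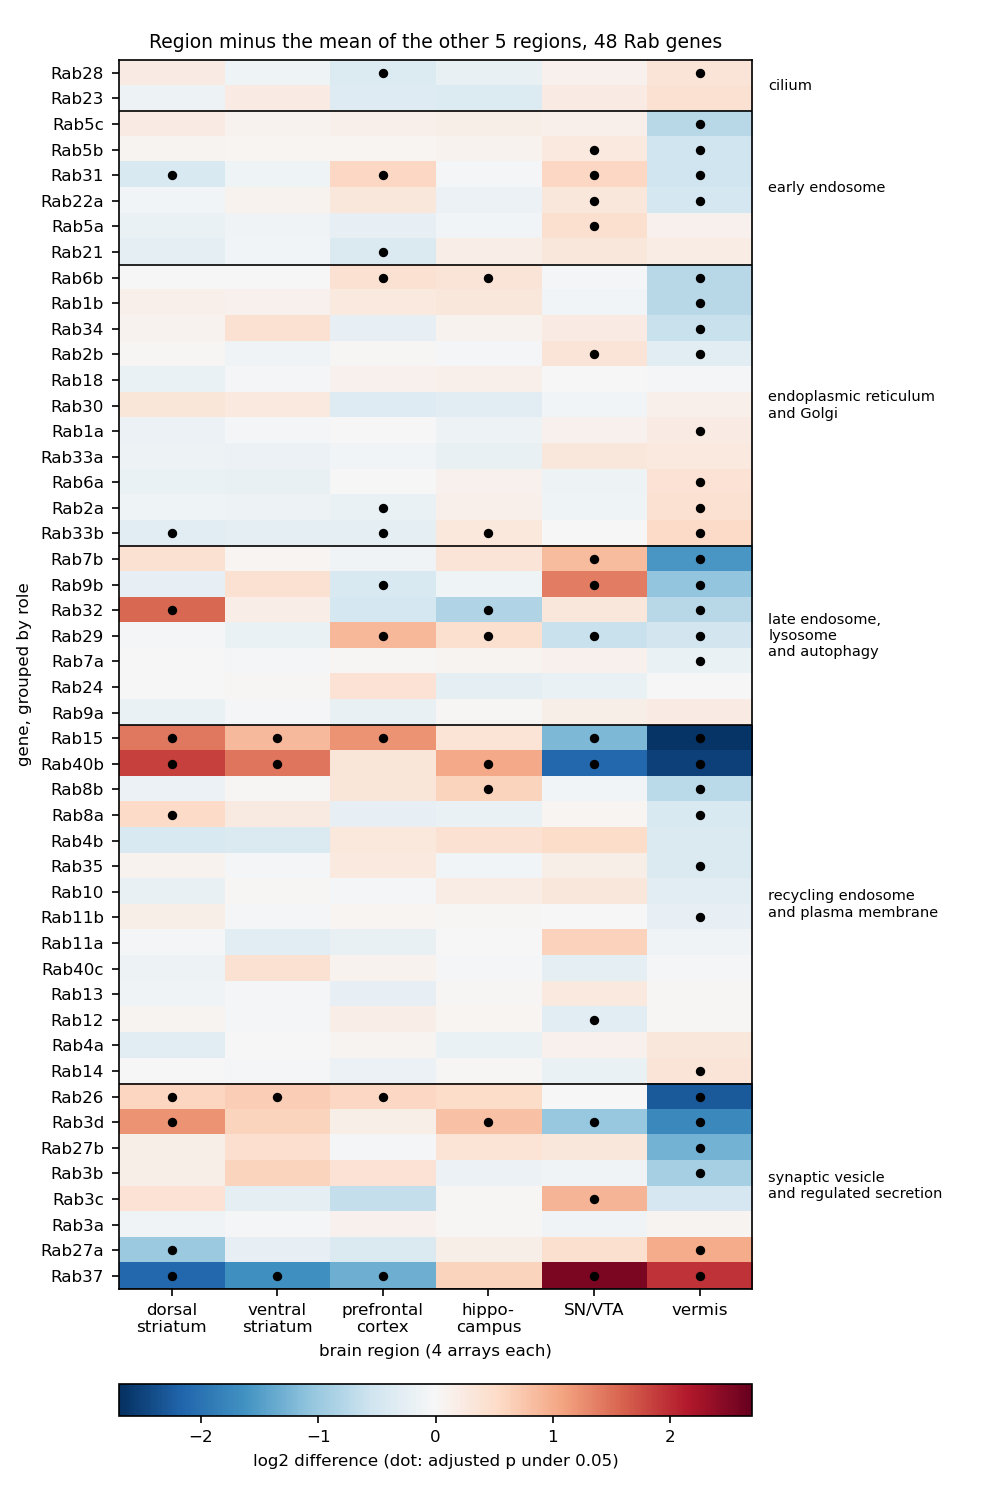
Heat map of the 48 tested Rab genes, grouped by role, in the 6 regions; colour is the log2 difference of a region from the mean of the other 5, and a dot marks an adjusted p under 0.05 (limma). The vermis column holds 31 dots and the ventral striatum column 4.

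In the vermis, 31 of 48 Rab genes differed from the other regions, 23 of them lower and 8 higher. Of all genes tested, 49% were called in the vermis, 29.7% as lower and 19.3% as higher. The members' median difference was -0.25 log2, against -0.07 for all genes. Under centring on the array median, which moves all vermis differences by -0.32, the split of called members was 28 lower and 2 higher. All 5 called late endosomal and lysosomal Rabs, all 4 called early endosomal Rabs and 6 of 7 called recycling Rabs were lower. The ER and Golgi group was split, with 4 higher and 4 lower. The microglial marker list moved with the vermis too, with 6 of its 8 tested genes lower. Its mean log2 level was 6.67 to 7.24 there and 7.13 to 8.58 elsewhere. Of the oligodendrocyte markers, 5 of 8 tested genes were lower in vermis and 1 higher, and of the vessel markers 3 of 6 were lower. The part of these lists in the vermis Rab differences was not tested.

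The 6 largest falls in vermis were those of Rab15, Rab40b, Rab26, Rab3d, Rab7b and Rab27b. Rab15, which controls return of endocytosed receptors, read 180 in SD, 182 in SD-PCB, 136 in WKY and 108 in SHR vermis, against 284 to 1908 on the other arrays. The groups did not overlap, and the log2 difference was -2.66 ± 0.15 (SE; adjusted p = 6.33e-13, limma). Rab40b, a Rab that works as an adaptor of a ubiquitin ligase, read 148, 115, 109 and 84.0 in the same order. Only the SN/VTA arrays reached down to those values (86.6 to 208), and the vermis difference was -2.51 ± 0.17 (adjusted p = 2e-11). Rab26, which links synaptic vesicles to autophagy, read 112, 114, 59.5 and 254, just under the lowest array elsewhere, 256. Its log2 difference was -2.27 ± 0.19 (adjusted p = 1e-09).

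Rab3d, a Rab of regulated secretion, read 102, 288, 221 and 176 in vermis and 186 to 1512 elsewhere, so that it overlapped with SN/VTA. It was lower by -1.74 ± 0.22 log2 (adjusted p = 5.15e-07). Rab7b, of transport from late endosomes to the Golgi, read 237, 240, 248 and 223. These 4 arrays lay close together and below every other array, the lowest of which read 414. The log2 difference was -1.57 ± 0.16 (adjusted p = 3.4e-08). The signal of Rab27b, which docks secretory granules, was 480, 535, 167 and 328 in vermis against 571 to 1342 elsewhere, again without overlap. The difference was -1.27 ± 0.16 (adjusted p = 4.17e-07).

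The other 17 genes lower in vermis had log2 differences from -1.06 ± 0.13 (Rab9b) to -0.18 ± 0.06 (Rab7a). Among them were 4 early endosomal Rabs, Rab5c (-0.76 ± 0.11), Rab5b (-0.55 ± 0.08), Rab31 (-0.53 ± 0.15) and Rab22a (-0.48 ± 0.11). Rab3b (-0.90 ± 0.21), Rab6b (-0.74 ± 0.09) and Rab8b (-0.72 ± 0.17) also fell here. With each strain group left out in turn, 23 of the 31 vermis calls were kept throughout, those of the 6 genes above among them.

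The 8 genes higher in vermis were led by Rab37, with 314, 568, 586 and 563 units and a log2 difference of 1.95 ± 0.38 (adjusted p = 0.000197). Rab27a read 601, 924, 301 and 562, and rose by 1.01 ± 0.22 (adjusted p = 0.00061). Its vermis and other arrays overlapped, since SN/VTA of SD-PCB read 800. Rab33b, a Golgi Rab that binds the autophagy protein Atg16l1, read 9125, 8867, 7808 and 6762 against 4178 to 7663 elsewhere. Its log2 difference was 0.51 ± 0.09 (adjusted p = 3.01e-05). Rab2a (0.42 ± 0.06), Rab6a (0.39 ± 0.07), Rab14 (0.36 ± 0.08), Rab28 (0.34 ± 0.10) and Rab1a (0.23 ± 0.09) were higher by less. Of these, the Rab6a call was lost under quantile normalization, and Rab1a turned to -0.09 under median centring. Second probe sets of Rab2a (-0.02) and of Rab2b, Rab7a, Rab11b, Rab14 and Rab22a were not called, and that of Rab5a was called higher at 1.0 where the brightest was not called (0.12).

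**Figure D2:**
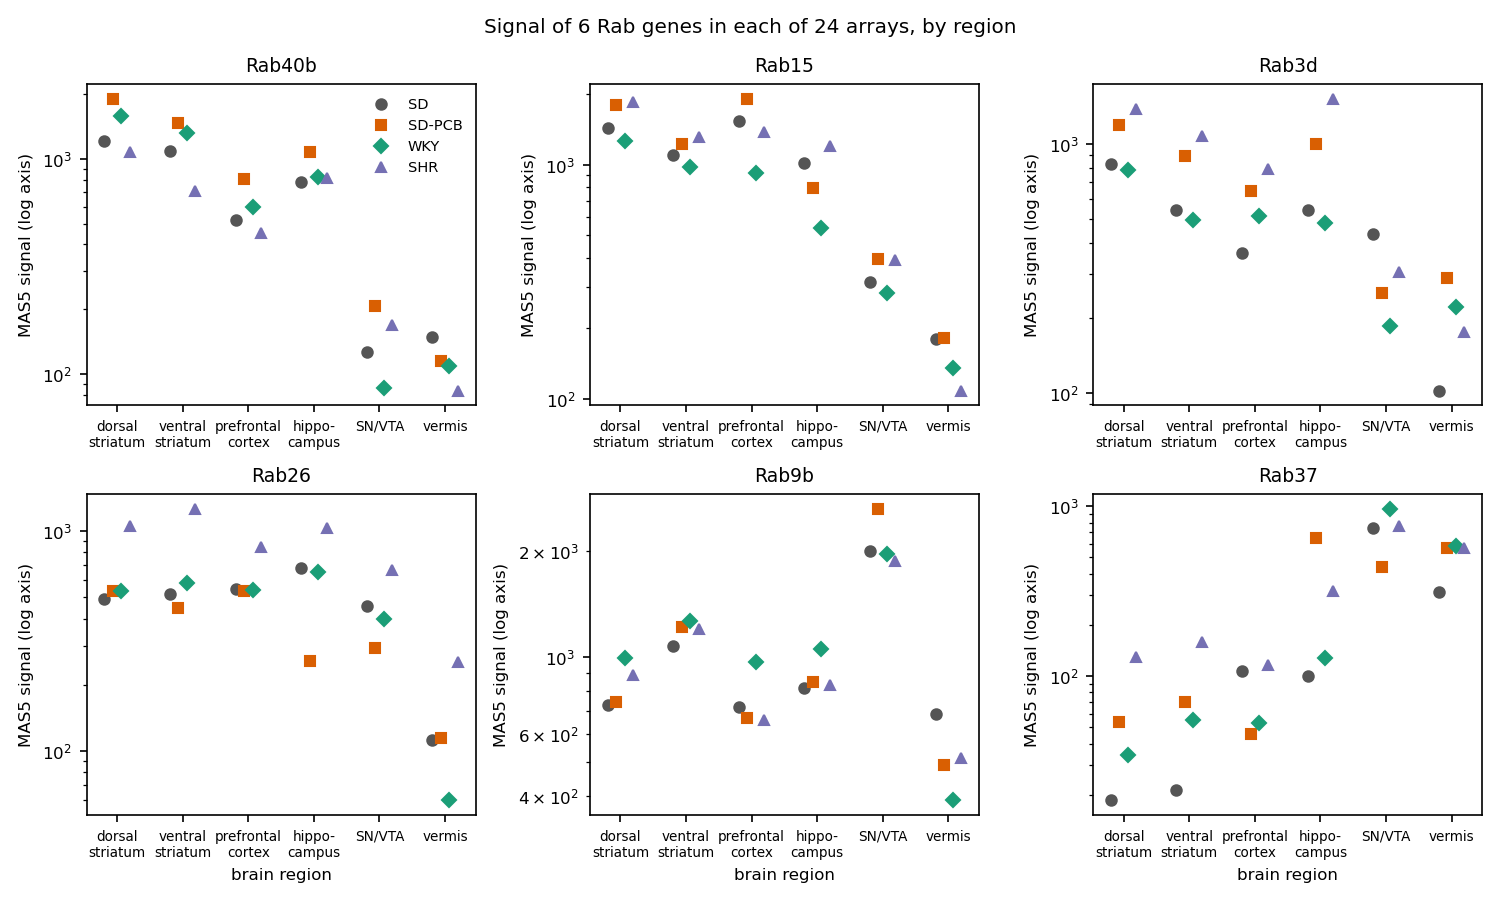
Signal (log axis) of 6 Rab genes on all 24 arrays by region, with 1 point for each strain group. Rab15 and Rab40b sit lowest in SN/VTA and vermis, Rab26 lowest in vermis, Rab9b highest in SN/VTA, and Rab37 low in both striata.

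Close paralogues took different courses. Rab27a was higher in vermis and Rab27b lower. Rab6a, the general Golgi Rab, was higher there (14807, 14877, 10161 and 9397), while Rab6b, its brain-enriched relative, was lower (3460, 3792, 4338 and 4277) and stayed under every array of the other regions. Rab9b was called while Rab9a was not, at 0.22 (adjusted p = 0.127). Rab40b was called while Rab40c was not, at -0.04 (adjusted p = 0.92). Differences between 2 paralogues were not tested as such. Among the Rab3 genes, Rab3a read 8903 to 13741 on all arrays of its brightest probe set, which was called in no region, whereas Rab3d was called in 4.

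**Figure D3:**
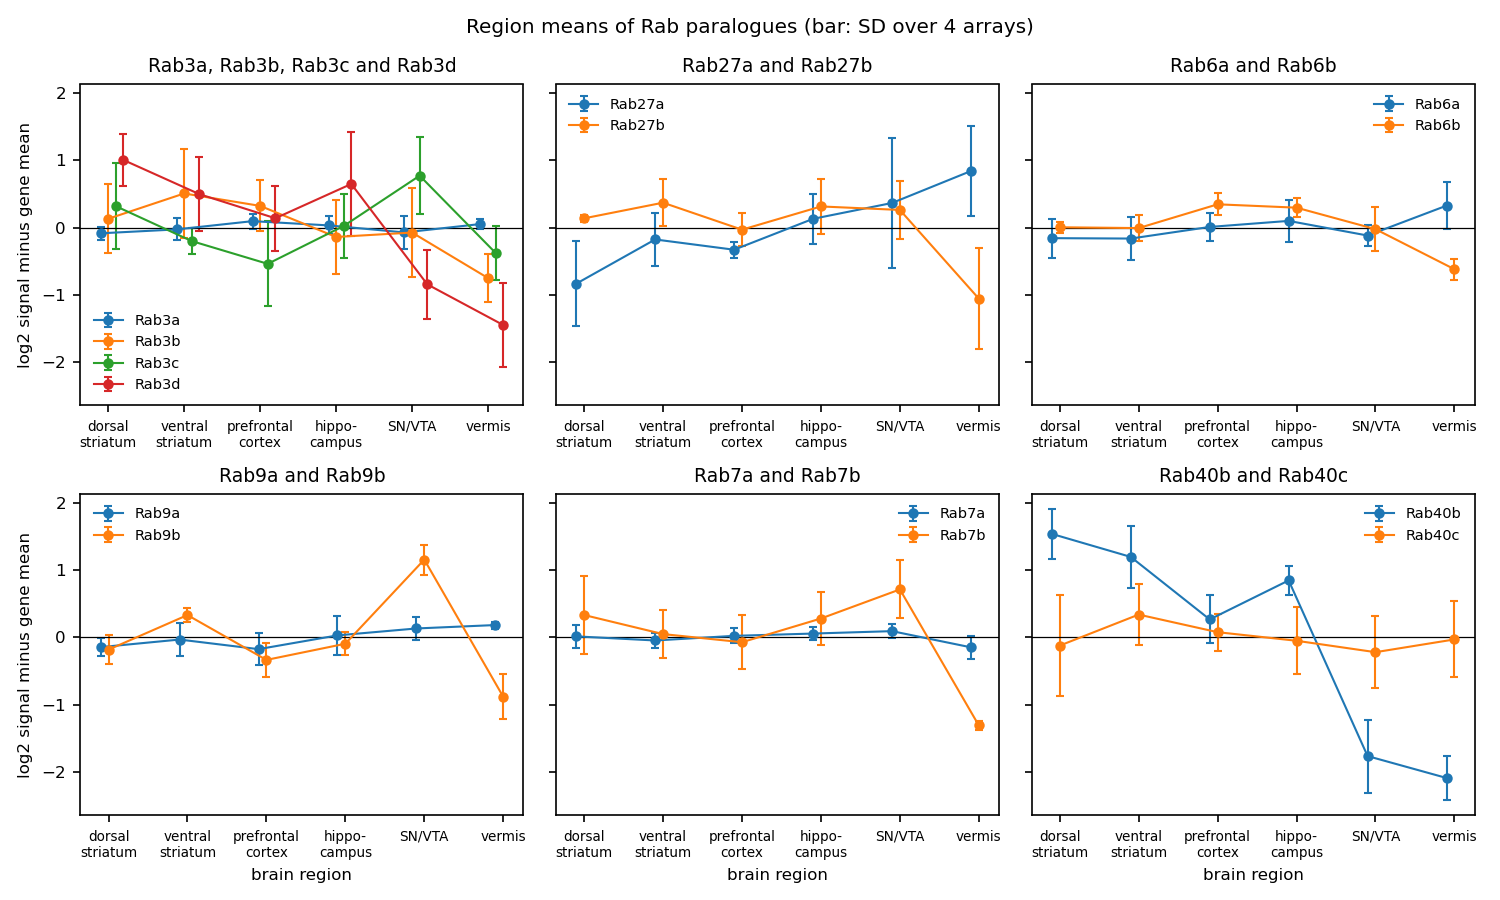
Region means of paralogous Rab genes, each minus its own mean over regions (log2; bars are the SD over 4 arrays). Rab3a, by its brightest probe set, is flat beside Rab3d, and in vermis Rab27a and Rab6a lie above their mean while Rab27b and Rab6b lie below.

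In the dorsal striatum, 10 of 48 Rab genes were called, 6 higher and 4 lower. That is 20.8% of members, against 19.9% of all genes (10.5% higher, 9.32% lower). Rab40b read 1203, 1890, 1582 and 1072 (SD, SD-PCB, WKY, SHR), a log2 difference of 1.85 ± 0.17 (adjusted p = 2.08e-08, limma). Rab32, which anchors protein kinase A at mitochondria and serves lysosome-related organelles, read 730, 943, 548 and 311. Its other arrays read 103 to 482, so that only the SHR striatum overlapped with them, and the difference was 1.55 ± 0.25 (adjusted p = 5.75e-05).

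Rab15 read 1438, 1794, 1265 and 1863 in dorsal striatum (1.42 ± 0.15, adjusted p = 1.43e-07), and Rab3d 829, 1188, 786 and 1378 (1.21 ± 0.22, adjusted p = 0.000221). Both overlapped with other forebrain regions. Rab26 (0.59 ± 0.19) and Rab8a (0.53 ± 0.12) completed the higher genes. Rab37 was lower, at 18.5, 53.8, 34.2 and 130 (-2.12 ± 0.38, adjusted p = 0.000237), with 3 of the 4 arrays under the filter's level. Rab27a read 307, 189, 132 and 114 (-1.0 ± 0.22, adjusted p = 0.00189). Rab31 (-0.41 ± 0.15) and Rab33b (-0.31 ± 0.09) were lower by less. The meningeal and fibroblast list was lower in the same tissue (7 of 7 tested genes, mean log2 level 6.63 to 7.50 against 7.32 to 9.83 elsewhere). Its part was not tested.

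The ventral striatum had 4 called members (8.33%, against 8.05% of all genes, 5.21% higher and 2.84% lower), 3 higher and 1 lower, all of which were called in the dorsal striatum too. Rab40b read 1083, 1465, 1321 and 710 (1.44 ± 0.17), Rab15 1098, 1226, 980 and 1317 (0.88 ± 0.15), and Rab26 517, 448, 579 and 1261 (0.65 ± 0.19). Rab37 read 21.4, 70.1, 54.8 and 159 (-1.66 ± 0.38), again with 3 arrays under the filter's level. SHR was the highest of the 4 groups for Rab15, Rab26 and Rab37 and the lowest for Rab40b. Without the SD arrays 2 calls were left, those of Rab40b and Rab15.

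SN/VTA had 14 called members, 9 higher and 5 lower (29.2%, against 33.2% of all genes, 19.5% higher and 13.8% lower). Rab37 read 739, 436, 962 and 765, a log2 difference of 2.55 ± 0.38 (adjusted p = 1.64e-05, limma). Rab9b, of return from late endosomes to the Golgi, read 2000, 2641, 1962 and 1876. Every other array lay at or below 1261, and the difference was 1.39 ± 0.13 (adjusted p = 2.78e-08).

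Rab3c, a synaptic vesicle Rab, read 259, 183, 375 and 447 in SN/VTA (0.93 ± 0.28, adjusted p = 0.0119). Rab7b read 1008, 668, 939 and 1386 (0.86 ± 0.16, adjusted p = 0.000279). 4 of the 6 tested early endosomal Rabs were higher: Rab31 (0.56 ± 0.15), Rab5a (0.43 ± 0.12), Rab22a (0.31 ± 0.11) and Rab5b (0.27 ± 0.08). Rab31 has 3 arrays between 2029 and 2082 and the SD-PCB array at 1274. Rab40b was lower, at 127, 208, 86.6 and 170 (-2.12 ± 0.17, adjusted p = 1.51e-09), as was Rab15 at 317, 396, 284 and 393 (-1.21 ± 0.15, adjusted p = 9.69e-07). Rab3d (-1.01 ± 0.22), Rab29 (-0.61 ± 0.13) and Rab12 (-0.30 ± 0.10) were lower too. Second probe sets of Rab5a (0.10), Rab2b (0.16) and Rab22a (0.39 and -0.19) were not called. Median centring gave 18 higher and 4 lower. Oligodendrocyte markers were higher in the same tissue (6 of 8 tested genes, mean log2 level 12.04 to 13.06 against 11.11 to 12.43 elsewhere). Meningeal and fibroblast markers (5 of 7 tested genes) and vessel markers (5 of 6) were higher too. The part of these lists was not tested.

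The prefrontal cortex had 11 called members, 5 higher and 6 lower (22.9%, against 21.5% of all genes, 11.4% higher and 10.1% lower). Rab15 read 1535, 1908, 920 and 1381 (1.21 ± 0.15, adjusted p = 1.94e-06, limma). Rab29, which recruits the kinase Lrrk2 to the Golgi and lysosomes, read 971, 1150, 1394 and 1717 (0.90 ± 0.13, adjusted p = 1.79e-05). The only array outside the cortex that overlapped with these was the SHR hippocampus, at 1343. Rab31 (0.57 ± 0.15), Rab26 (0.55 ± 0.19) and Rab6b (0.42 ± 0.09) were higher. Rab37 (-1.31 ± 0.38), Rab9b (-0.40 ± 0.13), Rab21 (-0.39 ± 0.12), Rab28 (-0.36 ± 0.10), Rab33b (-0.25 ± 0.09) and Rab2a (-0.18 ± 0.06) were lower. Median centring gave 9 higher and 1 lower, and 7 calls were left without SD, 3 without SD-PCB, 7 without WKY and 6 without SHR. The calls of Rab15, Rab29 and Rab6b were kept in each case. Oligodendrocyte markers were lower in the same tissue (7 of 8 tested genes, mean log2 level 11.11 to 11.88). The cerebellar list was raised on the WKY array (10.09). The part of these was not tested.

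The hippocampus had 7 called members, 6 higher and 1 lower (14.6%, against 11% of all genes, 6.79% higher and 4.23% lower). Rab40b read 783, 1075, 822 and 814 (1.02 ± 0.17, adjusted p = 0.000165, limma). Rab3d read 544, 1001, 482 and 1512 (0.78 ± 0.22, adjusted p = 0.0192). Rab8b (0.60 ± 0.17), Rab29 (0.44 ± 0.13), Rab6b (0.36 ± 0.09) and Rab33b (0.29 ± 0.09) were also higher. Rab32 was lower, at 167, 159, 103 and 181 (-0.81 ± 0.25, adjusted p = 0.0372). Without the SD or the WKY arrays 2 calls were left, and 4 without SHR. The Rab40b call was kept in each case. The striatal list was raised on the SD-PCB (9.06) and SHR (8.61) arrays, against 7.69 (SD) and 7.72 (WKY). Rab3d read highest on the SD-PCB and SHR arrays, and Rab40b on the SD-PCB array. The part of the striatal list was not tested.

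SHR differed from WKY in 19 of 48 Rab genes, 11 higher and 8 lower. Of all genes, 33.7% were called in this comparison, 20.7% as higher and 13% as lower. The members' median was 0.15 log2, against 0.11 for all genes. All 3 called secretory Rabs and all 4 called late endosomal and lysosomal Rabs were higher in SHR. The ER and Golgi group had 1 higher and 3 lower, the recycling group 2 higher and 3 lower, and the early endosomal group 1 of each. Under median centring 3 members were higher and 18 lower, so the balance of directions depends on the scaling. Without the ventral striatum arrays 12 members were called. 11 of the 19 calls were kept whichever region was left out: Rab3b, Rab5a, Rab8b, Rab10, Rab11b, Rab12, Rab18, Rab26, Rab28, Rab29 and Rab34.

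Rab26 rose most in SHR. Its 6 arrays read 59.5, 536 and 650 in WKY and 254, 937 and 1261 in SHR (lowest, median, highest). SHR was above WKY in 6 of 6 regions, but the groups overlap because both are low in vermis. The log2 difference was 1.04 ± 0.20 (SE; adjusted p = 0.000695, limma). Rab34, a Golgi Rab that places lysosomes and acts in cilium formation, read 199, 295 and 336 in WKY and 360, 520 and 831 in SHR. The groups did not overlap, and the difference was 0.96 ± 0.17 (adjusted p = 0.000297).

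Rab3b, a vesicle Rab of secretory cells and some neurons, read 198, 277 and 338 in WKY and 291, 491 and 961 in SHR, with a difference of 0.88 ± 0.22 (adjusted p = 0.00499). Rab3d read 186, 488 and 786 in WKY and 176, 937 and 1512 in SHR. It was higher in 5 of 6 regions and lower in vermis (0.77 ± 0.23, adjusted p = 0.014). Rab7b was also higher in 5 of 6 regions, with 248, 492 and 939 in WKY and 223, 893 and 1386 in SHR (0.66 ± 0.17, adjusted p = 0.00647). Rab29 read 393, 659 and 1394 in WKY and 753, 915 and 1717 in SHR, and was higher in 6 of 6 regions (0.56 ± 0.14, adjusted p = 0.0038).

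Rab15 (0.48 ± 0.15), Rab24 (0.42 ± 0.16), Rab5c (0.41 ± 0.12), Rab11b (0.36 ± 0.10) and Rab7a (0.18 ± 0.06) were higher by less. A pair of other Rab14 probe sets was called lower, at -0.57 and -0.75, where the brightest gave 0.20 and was not called. The second probe sets of Rab7a (-0.32) and Rab11b (-0.24) were not called and had the other sign, and the Rab7a value itself turned to -0.16 under median centring. Rab24 acts in autophagy, and Rab7a is the main Rab of late endosomes and lysosomes.

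Rab18, of the ER and lipid droplets, was the clearest gene lower in SHR. Its signal was 3074, 3489 and 3953 in WKY and 1503, 1780 and 2352 in SHR, so that the highest SHR array lay below the lowest WKY array. SD read 2176, 2721 and 3297, with a median between the other 2. The log2 difference was -0.94 ± 0.11 (adjusted p = 4.95e-06, limma). The sign was the same in 6 of 6 regions (two-sided exact sign-flip permutation p = 0.0312, the smallest that 6 regions allow).

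Rab8b, which carries cargo to the plasma membrane, read 269, 306 and 517 in WKY and 118, 190 and 200 in SHR, without overlap (-0.93 ± 0.18, adjusted p = 0.000796). Rab10, of exocytic transport and the ER, read 938, 1793 and 2358 in WKY and 897, 1001 and 1247 in SHR. Vermis was the exception: there WKY read 938 and SHR was slightly higher (-0.75 ± 0.14, adjusted p = 0.000638). Rab5a, the central Rab of early endosomes, read 1102, 1230 and 1432 in WKY and 615, 738 and 1094 in SHR, again without overlap (-0.65 ± 0.12, adjusted p = 0.000463). A second probe set of each of Rab10 and Rab5a was called in the same direction, at -0.75 and -1.27.

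Rab12, which moves transferrin receptor toward lysosomes, read 2168, 2988 and 3248 in WKY and 1511, 1864 and 2395 in SHR (-0.55 ± 0.10, adjusted p = 0.000532). It was lower in 5 of 6 regions. Rab28, a ciliary Rab, read 3559, 4648 and 5509 in WKY and 2563, 3167 and 4376 in SHR (-0.49 ± 0.10, adjusted p = 0.0014). It was lower in all 6 regions although the 2 ranges overlap. Rab1a (-0.29 ± 0.10) and Rab6a (-0.19 ± 0.07), both of the Golgi, were lower by less. The 29 members not called ranged from -0.63 to 0.91 log2.

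**Figure D4:**
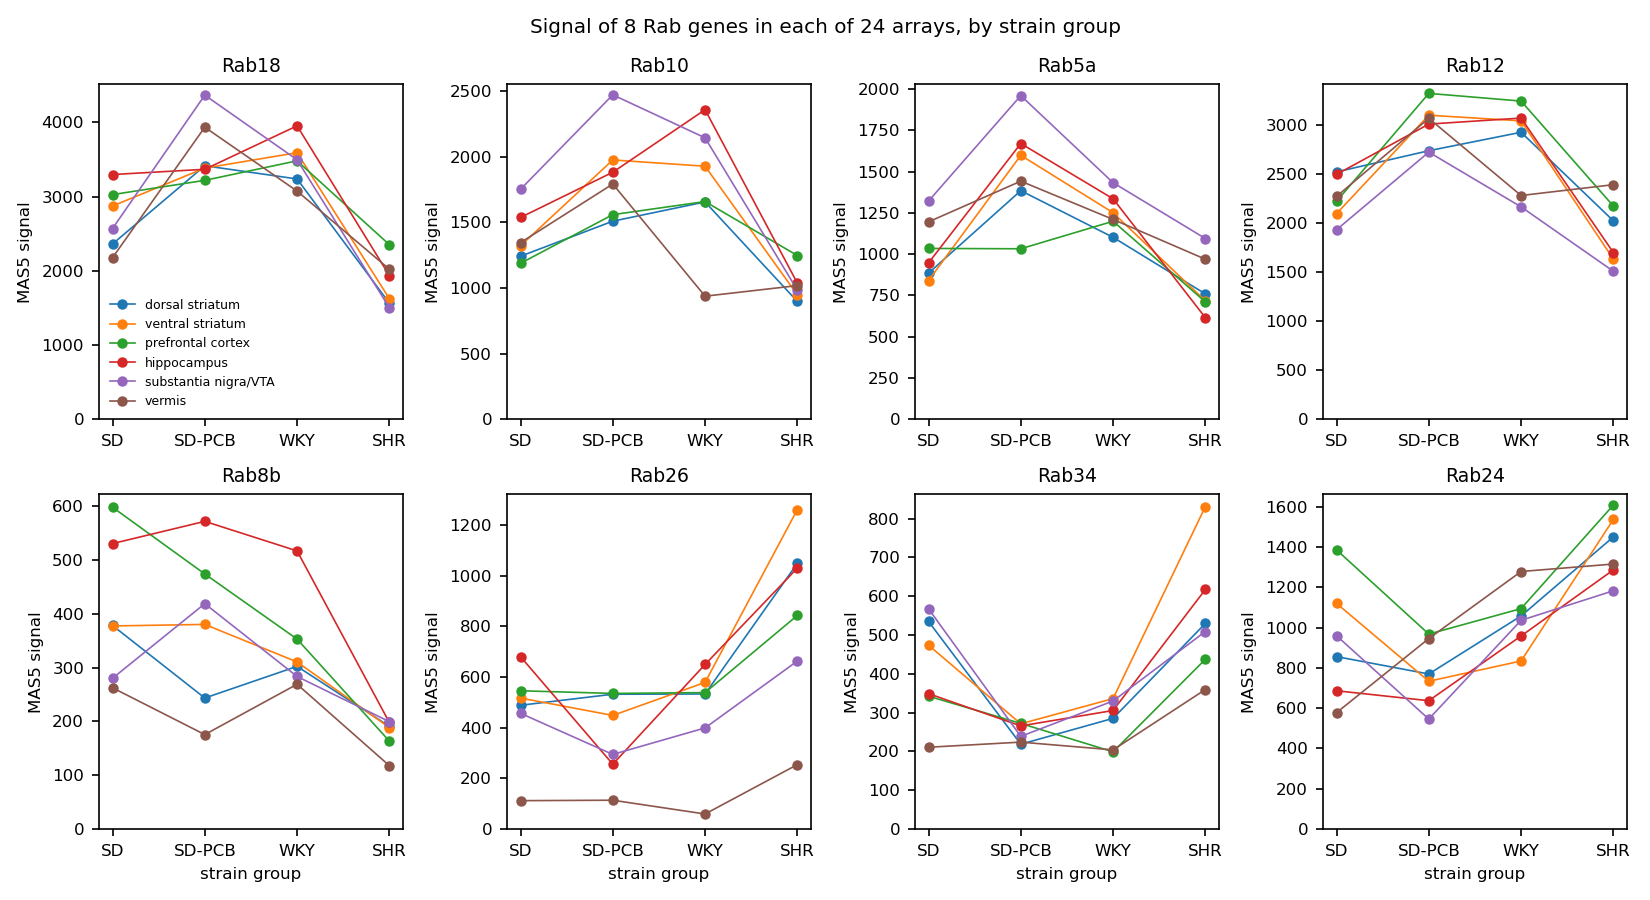
Signal of 8 Rab genes by strain group. Each point is 1 array and each line joins the 4 arrays of a region. SHR lies lowest for Rab18 and Rab8b, SD-PCB lies above SD for Rab18, Rab10 and Rab12, and SHR lies above WKY for Rab26, Rab34 and Rab24.

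Markers of other cells moved with SHR as well. 6 of 7 tested meningeal and fibroblast genes, 5 of 6 vessel genes and 4 of 8 microglial genes were higher in SHR than in WKY. The mean log2 level of the meningeal list was 6.63 to 7.88 in WKY and 6.92 to 9.69 in SHR. For the blood list, of which 1 gene was tested, it was 7.24 to 8.06 in WKY and 8.78 to 10.15 in SHR, without overlap. No marker had a value of 0 on any array. The Gapdh 3′ to 5′ log2 ratio averaged 1.91 in WKY and 1.53 in SHR, with overlapping ranges. The part of these in the Rab differences was not tested.

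SD-PCB differed from SD in 12 of 48 Rab genes, 9 higher and 3 lower. Of all genes, 28.3% were called, 14.8% as higher and 13.5% as lower. The members' median was 0.12 log2, against 0.003 for all genes. 3 of the 6 early endosomal Rabs and 4 of the 14 recycling Rabs were higher, and no late endosomal Rab was called. These counts depend strongly on scaling, and median centring changed them more than those of any other comparison. Median centring called 45 members higher and 0 lower. Quantile normalization called 10, of which 5 were among the 12, and with the array median as covariate 0 were called. Rab5a, Rab5c, Rab12, Rab14, Rab18, Rab22a and Rab34 were the 7 whose calls were kept whichever region was left out.

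Rab4b, of fast recycling, read 39.2, 109 and 203 in SD and 152, 174 and 227 in SD-PCB (0.90 ± 0.27, adjusted p = 0.0155, limma). It was higher in 4 of 6 regions, and the SD arrays of dorsal (39.2) and ventral striatum (49.1) were the lowest. Rab3d read 102, 489 and 829 in SD and 253, 770 and 1188 in SD-PCB (0.61 ± 0.23, adjusted p = 0.0448). Rab5a read 840, 990 and 1321 in SD and 1032, 1520 and 1960 in SD-PCB (0.54 ± 0.12, adjusted p = 0.00176). Its second probe set gave 0.04 and was not called.

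Rab35, of fast recycling and cytokinesis, read 324, 383 and 532 in SD and 361, 588 and 969 in SD-PCB (0.52 ± 0.17, adjusted p = 0.0206). Rab22a, of early endosomes, read 539, 737 and 1075 in SD and 939, 1039 and 1187 in SD-PCB, and was higher in 6 of 6 regions (0.47 ± 0.11, adjusted p = 0.00354). Its other 2 tested probe sets, at -0.05 and 0.49, were not called. Rab5c read 870, 1426 and 1733 in SD and 1062, 2093 and 2302 in SD-PCB (0.44 ± 0.12, adjusted p = 0.00598).

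Rab18 (0.42 ± 0.11), Rab12 (0.41 ± 0.10) and Rab10 (0.41 ± 0.14) were higher in 6 of 6 regions. For Rab12 the groups did not overlap, with 1934 to 2525 in SD and 2727 to 3327 in SD-PCB. The second Rab10 probe set gave 0.05 and was not called.

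The lower genes numbered 3. Rab30, a Golgi Rab, read 68.8, 157 and 273 in SD and 42.6, 73.9 and 112 in SD-PCB (-1.07 ± 0.32, adjusted p = 0.0147). All 6 SD-PCB arrays lay under the filter's level of 116.2 units, so the size of its difference is not exact. Rab34 read 211, 411 and 568 in SD and 219, 252 and 272 in SD-PCB (-0.66 ± 0.17, adjusted p = 0.00501), lower in 5 of 6 regions with overlapping ranges. Rab14, of transport between endosomes and Golgi, read 13422, 14890 and 17248 in SD and 8711, 10254 and 15314 in SD-PCB (-0.49 ± 0.08, adjusted p = 9.85e-05). Other Rab14 probe sets disagree: of 3 tested, 2 gave 0.09 and -0.16 without a call, and 1 was called higher at 0.65 (adjusted p = 0.00949). The direction of Rab14 therefore depends on the probe set. Under median centring Rab14 turned to 0.23 and Rab34 to 0.06. Astrocyte markers were lower in SD-PCB (5 of 7 tested genes, mean log2 level 11.85 to 12.38 in SD and 11.55 to 11.74 in SD-PCB), and the blood list was higher (7.28 to 8.51 against 8.96 to 9.49). Oligodendrocyte markers were lower too (4 of 8 tested genes), and vessel markers were higher (5 of 6). The Gapdh 3′ to 5′ log2 ratio was lower without overlap (1.96 to 2.18 in SD, 0.82 to 1.44 in SD-PCB). The part of these was not tested.

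Between the 2 models no array is shared, so SHR minus WKY could be set against SD-PCB minus SD in the same fit. 15 of 48 Rab genes differed between the models (31.2%, against 39.9% of all genes), 6 more positive and 9 more negative in the genetic one. Of all genes, 23% were more positive and 16.8% more negative. 7 members were called in both models (14.6%, against 10.4% of all genes). 5 of the 7 had opposite signs (71.4%, against 77.1% of the genes called in both): Rab18, Rab5a, Rab10 and Rab12 were lower in SHR and higher in SD-PCB, and Rab34 the reverse. Rab3d and Rab5c were higher in both. The SD-PCB side of the 5 is not stable. With the array median as covariate 0 members were called in SD-PCB minus SD, and Rab5a turned to -0.18 and Rab10 to -0.27. Under median centring Rab34 turned to 0.06. Rab18 and Rab12 lost their calls with the covariate but kept their sign. Second probe sets of Rab5a and Rab10 gave 0.04 and 0.05 in SD-PCB minus SD.

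The largest differences between models were -1.35 ± 0.16 for Rab18 (adjusted p = 3.19e-06, limma), -1.19 ± 0.17 for Rab5a (adjusted p = 2.36e-05) and -1.16 ± 0.20 for Rab10 (adjusted p = 0.000168). Rab12 gave -0.96 ± 0.15 and Rab8b -0.78 ± 0.26. For each of these 5 genes, 6 of 6 regions gave a negative difference. In the other direction stood Rab34 at 1.62 ± 0.24 (adjusted p = 3.28e-05), Rab30 at 1.61 ± 0.46 (adjusted p = 0.00802) and Rab26 at 1.39 ± 0.28 (adjusted p = 0.000648). Rab14 (0.69 ± 0.12), Rab24 (0.67 ± 0.22) and Rab29 (0.55 ± 0.19) followed, and Rab40b (-0.63 ± 0.25), Rab28 (-0.55 ± 0.15), Rab1a (-0.50 ± 0.14) and Rab22a (-0.45 ± 0.16) were on the negative side. A pair of other Rab14 probe sets were called with the opposite sign, at -0.66 and -1.40. Median centring, which shifts every difference between models by -1.06, left 1 member positive and 39 negative; it turned Rab14, Rab24 and Rab29 to -0.38, -0.39 and -0.52. Without the vermis arrays 23 members were called. 10 of the 15 calls were kept whichever region was left out, among them Rab18, Rab5a, Rab10, Rab12, Rab34, Rab30 and Rab26.

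**Figure D5:**
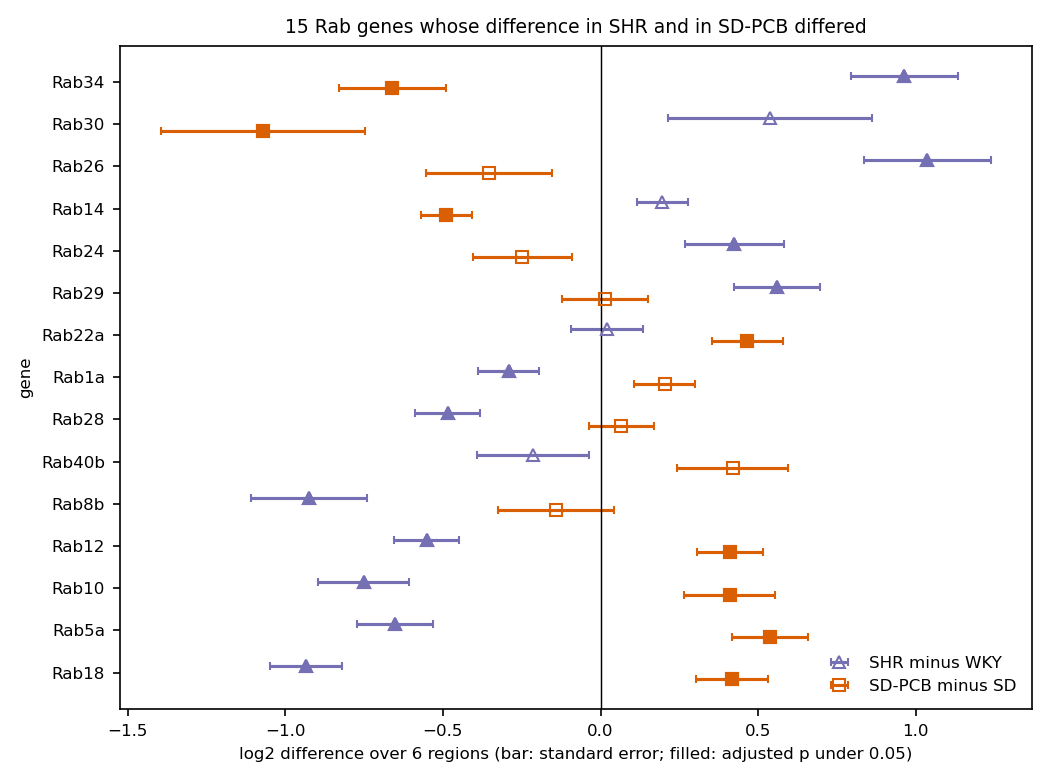
Log2 difference (± SE) of SHR minus WKY and of SD-PCB minus SD for the 15 Rab genes that differed between the models; filled points have an adjusted p under 0.05 (limma). Rab18, Rab5a, Rab10 and Rab12 lie below 0 in the genetic and above 0 in the environmental model, and Rab34 lies the other way.

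Against SD, SHR differed in 21 of 48 Rab genes, 11 higher and 10 lower. Of all genes, 35.7% were called, 24.4% as higher and 11.3% as lower. The members' median was 0.02, against 0.13. Under median centring 12 were higher and 6 lower. This comparison shares the SHR arrays with SHR minus WKY and the SD arrays with the other SD comparisons, so its calls are not independent of theirs.

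Rab37 read 18.5, 103 and 739 in SD and 116, 238 and 765 in SHR (1.37 ± 0.40, adjusted p = 0.0115, limma). It was higher in 6 of 6 regions, with wide overlap, and 4 of the SD arrays lay under the filter's level. Rab4b (1.07 ± 0.27), also with 4 such SD arrays, and Rab26 (0.89 ± 0.20) were higher too. Rab1b, of ER to Golgi transport, read 60.7, 320 and 431 in SD and 333, 387 and 603 in SHR (0.77 ± 0.29, adjusted p = 0.047), while Rab1a was lower (-0.44 ± 0.10). The lowest Rab1b value, SD vermis, lay under the filter's level, so the size of its difference is not exact. For Rab1b, SHR was below SD in dorsal striatum (333 against 431) and nearly equal in SN/VTA (352 against 348). Rab5c read 870, 1426 and 1733 in SD and 1740, 2338 and 2534 in SHR, with no overlap (0.73 ± 0.12, adjusted p = 6.58e-05), while Rab5a was lower (-0.36 ± 0.12). Rab3d (0.77 ± 0.23), Rab3b (0.70 ± 0.22), Rab29 (0.65 ± 0.14), Rab24 (0.64 ± 0.16), Rab7b (0.53 ± 0.17) and Rab11b (0.36 ± 0.10) were also higher.

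Rab8b was lower in SHR than in SD without overlap, at 262, 378 and 598 in SD and 118, 190 and 200 in SHR (-1.15 ± 0.18, adjusted p = 6.71e-05, limma). Rab6a read 9638, 11276 and 14807 in SD and 6430, 7884 and 9397 in SHR, also without overlap (-0.60 ± 0.07, adjusted p = 2.67e-06). Rab27a (-0.73 ± 0.23), Rab18 (-0.57 ± 0.11), Rab10 (-0.45 ± 0.14), Rab2a (-0.38 ± 0.07), Rab14 (-0.31 ± 0.08) and Rab28 (-0.30 ± 0.10) were lower too. A second Rab2a probe set gave 0.20 and was not called, and Rab14 turned to 0.04 under quantile normalization. With each region left out in turn, 12 of the 21 calls were kept throughout, among them those of Rab8b, Rab6a, Rab5c, Rab26 and Rab4b but not that of Rab37.

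WKY, the control strain of the genetic model, differed from SD in 7 members, 2 higher and 5 lower (14.6%, against 16.9% of all genes, 9.18% higher and 7.75% lower). Rab4b read 39.2, 109 and 203 in SD and 116, 175 and 221 in WKY (0.80 ± 0.27), and Rab18 was also higher (0.36 ± 0.11). Rab27b read 480, 798 and 1164 in SD and 167, 686 and 747 in WKY (-0.59 ± 0.16, adjusted p = 0.0148, limma). Rab34 (-0.53 ± 0.17), Rab14 (-0.50 ± 0.08), Rab6a (-0.40 ± 0.07) and Rab2a (-0.23 ± 0.07) were lower. The other probe sets of Rab14 (0.15, 0.29 and 0.32) and Rab2a (0.12) were not called and had the other sign. Median centring gave 22 higher and 0 lower, with Rab2a at 0.20 and Rab6a at 0.02. The count was 4 without dorsal striatum, 3 without ventral striatum, 2 without hippocampus and 11 without vermis, and the calls of Rab14 and Rab6a were kept in each case. For Rab6a and Rab2a the 2 strains WKY and SHR were thus both below SD, and for Rab18 WKY was above SD and SHR below it. Meningeal and fibroblast markers (7 of 7 tested genes), astrocyte markers (5 of 7) and oligodendrocyte markers (4 of 8) were lower in WKY than in SD. Their part was not tested.

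The lists of genes that load, switch off and read out Rabs hold 26, 27 and 38 tested genes. In SHR minus WKY, where 33.7% of all genes were called, 3 of the exchange factors (11.5%) were called, all lower, led by Dennd6a (-0.70 ± 0.17, adjusted p = 0.00426, limma). Of the GTPase-activating proteins, 5 were higher and 4 lower (33.3% called). Tbc1d17 (0.72 ± 0.17) and Sgsm3 (0.72 ± 0.25) were higher, and Tbc1d23 (-0.84 ± 0.18) and Rab3gap1 (-0.46 ± 0.08), which acts on Rab3, were lower. Of the effectors, 4 were higher and 3 lower (18.4%). Ehbp1l1, an effector of Rab8 and Rab10, was higher at 1.24 ± 0.34, as was Pik3c3, the lipid kinase that makes the early endosomal phosphoinositide, at 0.81 ± 0.19. Eea1 (-0.63 ± 0.14) and Appl1 (-0.36 ± 0.09), both Rab5 effectors, were lower in SHR. Among the Rab5 genes, Rab5a was lower too, whereas Rab5c was higher (0.41).

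In SD-PCB minus SD, where 28.3% of all genes were called, 7 exchange factors were higher and 1 lower (30.8% called). Rabgef1, an exchange factor of Rab5, was higher in 6 of 6 regions (0.46 ± 0.09, adjusted p = 0.000749, limma). Of the GTPase-activating proteins 3 were higher and 2 lower (18.5%), among them Rabgap1l (-0.89 ± 0.25) and Sgsm2 (-0.53 ± 0.18). Of the effectors 7 were higher and 3 lower (26.3%). Exoc6, an exocyst subunit, was higher (0.76 ± 0.16), and Pik3r4 (-0.73 ± 0.17) and Myo5a, a vesicle motor (-0.69 ± 0.16), were lower. Gdi2, a GDP dissociation inhibitor, was lower in 6 of 6 regions (-0.63 ± 0.09, adjusted p = 2.58e-05), whereas Rabac1, which helps place Rabs on membranes, was higher (0.63 ± 0.12, adjusted p = 0.000431). Ppm1h, a phosphatase that acts on Lrrk2-phosphorylated Rabs, was higher too (0.62 ± 0.12, adjusted p = 0.000489). Median centring, which adds 0.72 to each of these values, turns Gdi2, Sgsm2 and Myo5a above 0.

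In vermis, where 49% of all genes were called, 14 of 38 effectors were lower and 5 higher (50% called), led by Ehbp1l1 (-2.81 ± 0.32), Myo5b, a motor of Rab11 endosomes (-2.66 ± 0.16), and Sytl2, a Rab27 effector (-1.43 ± 0.22). Rab11fip1 (1.58 ± 0.26) and Mical2 (1.22 ± 0.21) were higher there. Rab3ip, an exchange factor of Rab8, was higher (1.09 ± 0.12), and Mon1a, an exchange factor of Rab7, lower (-0.95 ± 0.19). Of the GTPase-activating proteins, Tbc1d4 was higher (1.23 ± 0.17) and Sgsm2 lower (-1.51 ± 0.17). In dorsal striatum, Myo5b (1.77 ± 0.16) and Rabgap1l (1.32 ± 0.24) were higher.

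The brightest probe sets of 8 members stayed uncalled in every region and strain comparison: Rab3a, Rab4a, Rab9a, Rab11a, Rab13, Rab23, Rab33a and Rab40c. Second probe sets of 2 of them were called. That of Rab3a was higher in SD-PCB than in SD in 6 of 6 regions (1.07 ± 0.14, adjusted p = 7.23e-06, limma) and higher in SHR than in SD (0.49 ± 0.14, adjusted p = 0.00966), while the brightest gave -0.13 and -0.05. That of Rab11a was higher in SN/VTA (0.42 ± 0.12, adjusted p = 0.00697). Another 8, Rab17, Rab19, Rab20, Rab25, Rab36, Rab38, Rab39a and Rab43, fell under the filter on low signal and were not tested. Their medians over the 24 arrays ranged from 11.5 (Rab39a) to 92.4 (Rab38) signal units.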

How the data were processed

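Signals were taken as the authors deposited them: probe set intensity made with Affymetrix MAS5, per the submitters' processing notes (version not given in the sources used here), from RNA prepared and amplified with RNeasy and Ovation kits, per the labels' protocols. The 2% trimmed mean of the deposited signal is nearly the same on all arrays. Detection calls, scan dates and batches were not used here. Genes were named through the platform annotation: 20826 probe sets have 1 symbol, 436 several and 9780 none. 3 probe sets shared by Rab1b and Rab1a were left out. Values were log2(signal + 1) transformed. The brighter 15521 of 31042 probe sets were tested (mean log2 of 6.873 or more). One limma model (3.58.1, R 4.3.3; strain group plus region, eBayes with trend, 15 residual degrees of freedom, two-sided) covered all 24 arrays and was checked on simulated data. Level differences between probe sets are not comparable. The number of arrays limits the precision. The SHR minus SD, WKY minus SD and SD-PCB minus SD comparisons share the SD arrays.

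The members, roles, pathway lists and markers were chosen with earlier results of these data known. At most 6 called members per direction and comparison are given with their arrays, others by difference and standard error. Up to 3 genes per pathway list and direction are named. Alternatives covered scaling, pseudocount, filter, trend, array weights, the array median as covariate, the mean of a gene's probe sets, a threshold of 0.5 log2, the arrays of 2 groups alone, and leaving out each region or strain group.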

Additional observations from a re-analysis of the deposited data

Results flagged for a closer look

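Of 95 groups of 4 to 6 values checked for a value far from the rest, 7 had one, and chance gives about 1 in 20. The SHR minus WKY difference of Rab26 was 2.08 log2 in vermis, well above the other regions. The SHR array stood apart for Rab26 in dorsal striatum (1049) and prefrontal cortex (843), both high, and for Rab8b in hippocampus (198), low. The SD-PCB array stood apart for Rab40b in hippocampus (1075, high) and for Rab31 in SN/VTA (1274, low). The SD array stood apart for Rab37 in vermis (314, low).

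For 15 Rab genes the effect of the genetic model (SHR minus WKY) differed from that of the environmental one (SD-PCB minus SD) by limma's test of the difference. The differences in log2 were 1.62 for Rab34, 1.61 for Rab30, 1.39 for Rab26, 0.69 for Rab14, 0.67 for Rab24 and 0.55 for Rab29. They were -1.35 for Rab18, -1.19 for Rab5a, -1.16 for Rab10, -0.96 for Rab12, -0.78 for Rab8b, -0.63 for Rab40b, -0.55 for Rab28, -0.50 for Rab1a and -0.45 for Rab22a.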

How the results depend on the processing

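Of 162 called member values, 39 kept direction and call under every alternative fit that covers them. The threshold of 0.5 log2 was not among these fits. The number was 57 when a lost call, but not a change of sign, was allowed with the array median as covariate. The 57 include none from SD-PCB minus SD or WKY minus SD. Median centring changed the number of Rab genes called from 12 to 45 in SD-PCB minus SD, from 7 to 22 in WKY minus SD, from 15 to 40 between the models and from 14 to 22 in SN/VTA. Quantile normalization left 3 in WKY minus SD. The array median as covariate left 4 of 19 in SHR minus WKY, 0 in SD-PCB minus SD, in WKY minus SD and between the models, 9 in SN/VTA and 14 of 31 in vermis. Array weights gave 30 in SHR minus WKY, 16 in WKY minus SD, 24 between the models and 11 in ventral striatum. The mean of all probe sets of a gene gave 4 in WKY minus SD, 9 between the models and 2 in ventral striatum. Fitting only the WKY and SD arrays gave 4. The upper 25% by signal gave 6 in dorsal striatum, 1 in ventral striatum and 4 in hippocampus. A minimum of 0.5 log2 left 11 in SHR minus WKY, 6 in SD-PCB minus SD, 4 in WKY minus SD, 5 in prefrontal cortex, 4 in hippocampus, 9 in SN/VTA and 19 in vermis.

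Leaving out a region gave 12 to 22 calls in SHR minus WKY, 8 to 16 in SD-PCB minus SD, 14 to 21 in SHR minus SD, 2 to 11 in WKY minus SD and 11 to 23 between the models. Leaving out a strain group gave 7 to 9 in dorsal striatum, 2 to 4 in ventral striatum, 3 to 7 in prefrontal cortex, 2 to 5 in hippocampus, 11 to 15 in SN/VTA and 25 to 28 in vermis. No pairing by rat was possible because the replicate numbers only name the regions. Region is a term of the model, so strain groups were compared within regions.

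Signs reversed as follows. Under median centring: Rab7a in SHR minus WKY (-0.16), Rab14 (0.23) and Rab34 (0.063) in SD-PCB minus SD, Rab2a (0.20) and Rab6a (0.022) in WKY minus SD, Rab14 (-0.38), Rab24 (-0.39) and Rab29 (-0.52) between the models, and Rab1a in vermis (-0.09). With the covariate: Rab4b (-0.92), Rab5a (-0.18), Rab5c (-0.38) and Rab10 (-0.27) in SD-PCB minus SD, Rab4b in WKY minus SD (-0.26), Rab1a (0.18) and Rab28 (0.18) between the models, and Rab2b (0.039) and Rab11b (0.009) in vermis. With the mean of probe sets: Rab7a in SHR minus WKY (-0.07), Rab14 in WKY minus SD (0.23) and between the models (-0.33), and Rab31 in vermis (0.02). Under quantile normalization: Rab14 in SHR minus SD (0.044). The causes were not tested.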
